A study of Mus musculus with 24 samples.

Results

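Solute carriers are the membrane proteins that move amino acids, sugars, nucleosides, metals, ions, lipids and vitamins across the plasma membrane and the membranes of organelles. Their genes share the symbol prefix Slc and were followed here in FAPs (fibro/adipogenic progenitors). These stromal cells of muscle can become fibroblasts or fat cells and enter the cell cycle after injury. All genes whose array symbol starts with Slc and a number were taken, without the scaffold genes Slc9a3r1 and Slc9a3r2, which gave 324 genes with 471 probes among 25697 probes. The brightest probe, by its mean over 24 arrays, stood for each gene. Of the 324 genes, 134 had a detection p under 0.01 on at least 6 arrays and are described here, among 8148 features that passed the same filter. Slc4a1ap and Slc7a6os carry a carrier's name without being carriers, and neither changed in any comparison.

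The cells were sorted from the hind limb muscles of wildtype male C57BL/6J mice, with the quadriceps, gastrocnemius and tibialis anterior pooled. Activated cells came from muscle taken 3 days after an injection of 50 µl of 50% glycerol, which damages muscle fibres and is followed by regeneration with fat deposition, and quiescent cells came from muscle without injury. The 4 groups were old activated, old quiescent, young activated and young quiescent, with old mice of 20 to 24 months and young mice of 2 to 4 months. Each group held 6 arrays, which the labels call biological replicates. Each array was an Illumina 1-colour bead array, on which probe brightness stands for the amount of RNA. Levels are log2 intensities after background correction and quantile normalization with an offset, which makes the changes of dim probes look smaller, and they cannot be set against each other between genes. The sources used here give no sorting markers. The array names hold a letter of unstated meaning that is the same within a group, and what it stands for and the group cannot be told apart.

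Solute carriers work as importers, exchangers and exporters, and many depend on gradients of sodium or protons made by ATPases rather than on ATP itself. At the plasma membrane, amino acid and glucose carriers feed growth, while carriers of noradrenaline, GABA, glycine and glutamate clear transmitters. In organelles, the Slc25 family links the mitochondrial matrix to the cytosol, lysosomal carriers return the products of digestion, and the Slc35 family brings nucleotide sugars into the Golgi for the coating of matrix proteins with sugar chains.

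RefSeq promoter windows of 300 bases (GRCm38.p6, from 250 bases before to 50 bases after a transcript start) were found for 107 of the 134 genes. They covered 9 of the 11 genes that were higher and 9 of the 12 genes that were lower in activated cells of both ages. The 4 windows below are shown because their genes are described in full later. The first belongs to the metal carrier of phagosomes and the next to a lysosomal amino acid exporter, both higher after injury, and the last pair to a monocarboxylate carrier and a sodium-coupled amino acid carrier, both lower. Capitals mark GGGCGG, the box of the SP and KLF factors, or GAGGAA, the core of PU.1 sites, on either strand. The windows lie at chr1:74374953-74375252 on the plus strand for Slc11a1, chr4:139310659-139310958 on the minus strand for Slc66a1, chr10:70245026-70245325 on the plus strand for Slc16a9 and chr15:96699679-96699978 on the minus strand for Slc38a2.
Slc11a1: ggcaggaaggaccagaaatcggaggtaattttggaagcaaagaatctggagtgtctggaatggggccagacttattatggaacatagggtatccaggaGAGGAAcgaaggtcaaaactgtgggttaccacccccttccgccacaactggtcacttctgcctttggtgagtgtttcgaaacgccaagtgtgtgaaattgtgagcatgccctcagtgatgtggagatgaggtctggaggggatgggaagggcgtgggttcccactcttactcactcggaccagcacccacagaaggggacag
Slc66a1: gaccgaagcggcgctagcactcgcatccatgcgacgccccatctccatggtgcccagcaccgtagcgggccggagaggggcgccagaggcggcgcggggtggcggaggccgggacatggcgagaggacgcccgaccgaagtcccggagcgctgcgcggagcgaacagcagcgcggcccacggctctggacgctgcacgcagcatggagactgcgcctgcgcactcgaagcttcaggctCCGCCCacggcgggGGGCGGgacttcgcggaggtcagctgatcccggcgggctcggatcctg
Slc16a9: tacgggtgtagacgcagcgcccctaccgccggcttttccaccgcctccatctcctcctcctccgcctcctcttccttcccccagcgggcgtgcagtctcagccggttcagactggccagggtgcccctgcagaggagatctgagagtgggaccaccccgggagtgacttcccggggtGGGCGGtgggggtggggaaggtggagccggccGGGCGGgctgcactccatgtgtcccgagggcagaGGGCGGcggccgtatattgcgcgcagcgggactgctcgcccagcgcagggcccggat
Slc38a2: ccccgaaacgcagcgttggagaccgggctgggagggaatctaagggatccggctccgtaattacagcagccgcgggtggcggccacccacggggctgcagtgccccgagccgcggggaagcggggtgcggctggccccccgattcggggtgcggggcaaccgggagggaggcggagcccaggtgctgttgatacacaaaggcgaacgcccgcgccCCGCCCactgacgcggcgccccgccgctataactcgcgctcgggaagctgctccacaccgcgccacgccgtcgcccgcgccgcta

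GGGCGG or its reverse complement stood in a window of 8 of the 9 genes higher in both ages, 8 of the 9 genes lower in both ages and 79.4% of the 107 genes. Of all 32851 windows in the table, 35.7% held it. Slc11a1 was the gene without the box among the 9 higher ones and Slc25a47 among the 9 lower ones. GAGGAA was found for 3 of 9 higher genes, 2 of 9 lower genes, 21.5% of the 107 genes and 28.3% of all windows. The E-box CACGTG was found for 1 of 9, 1 of 9, 15.9% and 7.15%. TGATGNAA, an element read by ATF4, was found for 0 of 9, 0 of 9, 5.61% and 3.97%, and the AP-1 site TGANTCA for 1 of 9, 0 of 9, 3.74% and 7.81%. All motifs were searched on both strands, overlaps between motifs were counted for each, and a gene with several windows had more chances of a match than a single window.

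Between 78 and 125 solute carrier genes were detected per array, with a median of 106. The best probe of 50 genes was detected on every array, of 84 genes on 6 to 23 arrays, of 52 genes on 1 to 5 arrays and of 138 genes on none. Among well known carriers below the filter, Slc4a1 of red blood cells was detected on 4 arrays, the lactate exporter Slc16a3 on 3 and the cystine importer Slc7a11 on 2. Slc1a5, Slc16a1, Slc37a2, Slc39a14 and Slc43a3 were detected on 0 arrays. Pdgfra, which defines FAPs, was detected on all 24 arrays, and the satellite cell genes Pax7, Myf5, Myod1 and Chrdl2 did not pass the filter. Old quiescent array 2 and old activated array 4 stood apart from their groups, and the median SD of the 134 genes was 0.57 in old activated, 0.54 in old quiescent, 0.41 in young activated and 0.41 in young quiescent arrays. Markers of macrophages, which engulf debris in injured muscle, differed between the groups. The summed level of 12 macrophage and monocyte genes lay between 21730 and 43158 on old activated, 2238 and 31363 on old quiescent, 7676 and 40175 on young activated and 1737 and 2887 on young quiescent arrays. The highest old quiescent sum was that of array 2. Of these 12 genes, 12 rose in young and 11 in old activated arrays. None of the 12 was undetected in a whole group: Ms4a6d and Mrc1, detected on 4 of 6 young quiescent arrays, were the least often detected there.

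Other cell types moved as well. The summed level of 10 FAP and fibroblast genes was 12769 to 26544 on old activated, 33182 to 44306 on old quiescent, 14645 to 22322 on young activated and 36268 to 48045 on young quiescent arrays, and 7 of the 10 fell in each age. Thy1 was the gene among them that rose, 1.76-fold in old mice (limma adjusted p = 0.0377). For 10 endothelial genes the sums were 4410 to 7548 on old activated, 8362 to 21372 on old quiescent, 1583 to 3721 on young activated and 14568 to 25090 on young quiescent arrays. Of these, 9 fell in young activated arrays and 4 in old activated arrays. These are bulk samples, in which fewer cells of a type and less RNA per cell cannot be told apart.

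**Figure D1:**
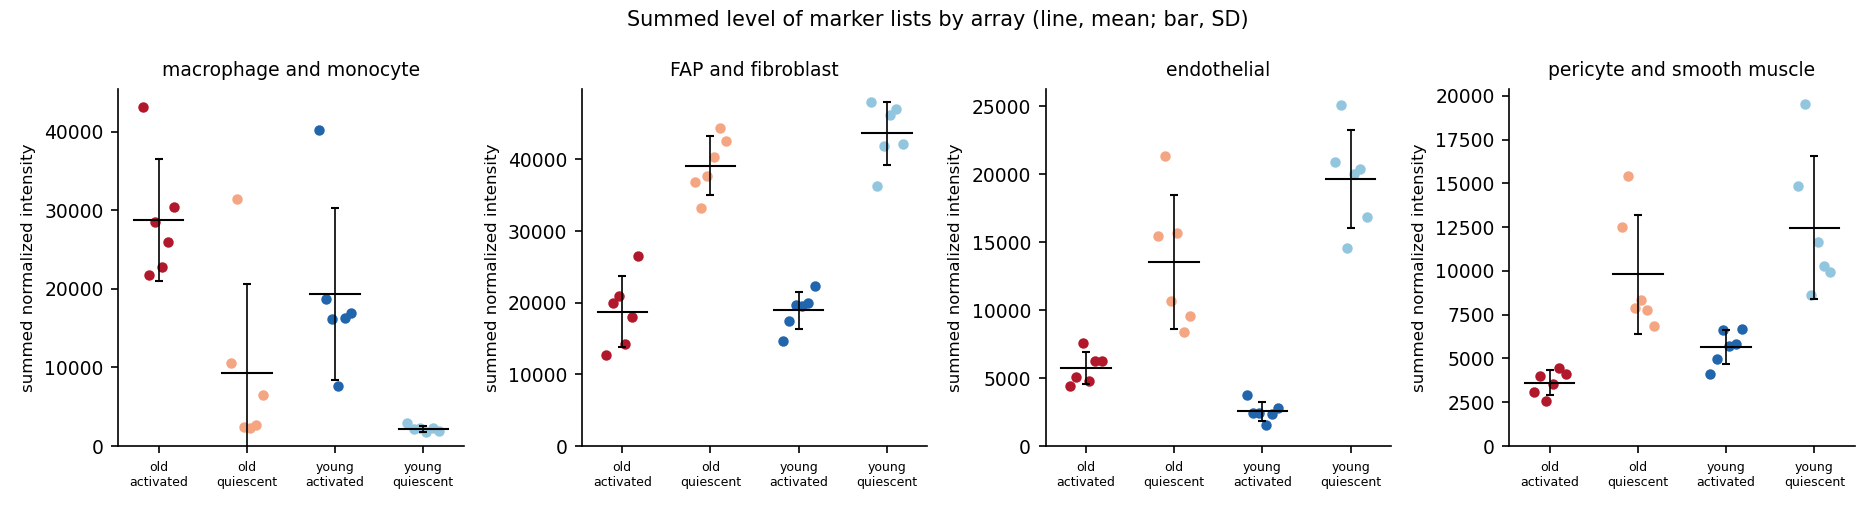
Summed normalized intensity (linear scale) of 4 marker lists on each array, with 6 arrays per group, a line at the mean and a bar of 1 SD cut off at 0. The macrophage and monocyte sum was higher on activated than on quiescent arrays in mean, while the FAP, endothelial and pericyte sums were lower. Old quiescent arrays 2 and 1, at macrophage sums of 31363 and 10518, lay above the lowest young activated array, at 7676.

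After injury about as many solute carriers were higher as lower. Among genes called in both ages, the largest mean rises were those of Slc15a3, Slc2a6, Slc66a1 and Slc11a1, and the largest mean falls were those of Slc6a2, Slc29a1, Slc6a13 and Slc1a1. In young mice, 31 of 134 genes (23.1%) changed between activated and quiescent cells, 17 higher and 14 lower (limma, Benjamini-Hochberg adjusted p under 0.05 over all 8148 features), while 33.7% of all features changed (17.2% higher and 16.6% lower). In old mice, 37 genes (27.6%) changed, 18 higher and 19 lower, beside 28.3% of all features (14.5% higher and 13.8% lower). The same shares of all features stand beside the activation counts of classes and lists below, which rest on the brightest probe of each gene. The median log2 change of the 134 genes was 0.04 in young and 0.00 in old mice, and that of all features was -0.01 and 0.00. The median size of the log2 change was 0.46 against 0.49 for all features in young mice and 0.51 against 0.45 in old mice. Called changes of at least 2-fold numbered 18 in young and 20 in old mice, and the matching share of all features is not given here.

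Of the genes that changed, 11 were higher and 12 lower in both ages, and 0 changed in opposite directions. Among the 11, Slc7a8 and Slc27a1 were undetected on every quiescent array and passed the filter through activated arrays alone. The 23 shared genes are 74.2% of the young list and 62.2% of the old list, beside 61% and 72.8% for all features, of which 10.7% were higher and 9.9% lower in both ages. Of these 23 genes, 6 were at least 2-fold higher and 7 at least 2-fold lower in both ages. The matching share of all features is not given here, so whether these counts are many or few cannot be read from them. Another 8 genes were called in young mice alone and 14 in old mice alone. No solute carrier differed between the ages in its activation change by the test of that difference (0 of 134 called with limma, beside 0.184% of all features). An unadjusted p under 0.05 was found for 5 genes (3.73%), beside 8.53% of all features. Thus no gene is shown to respond in 1 age alone.

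**Figure D2:**
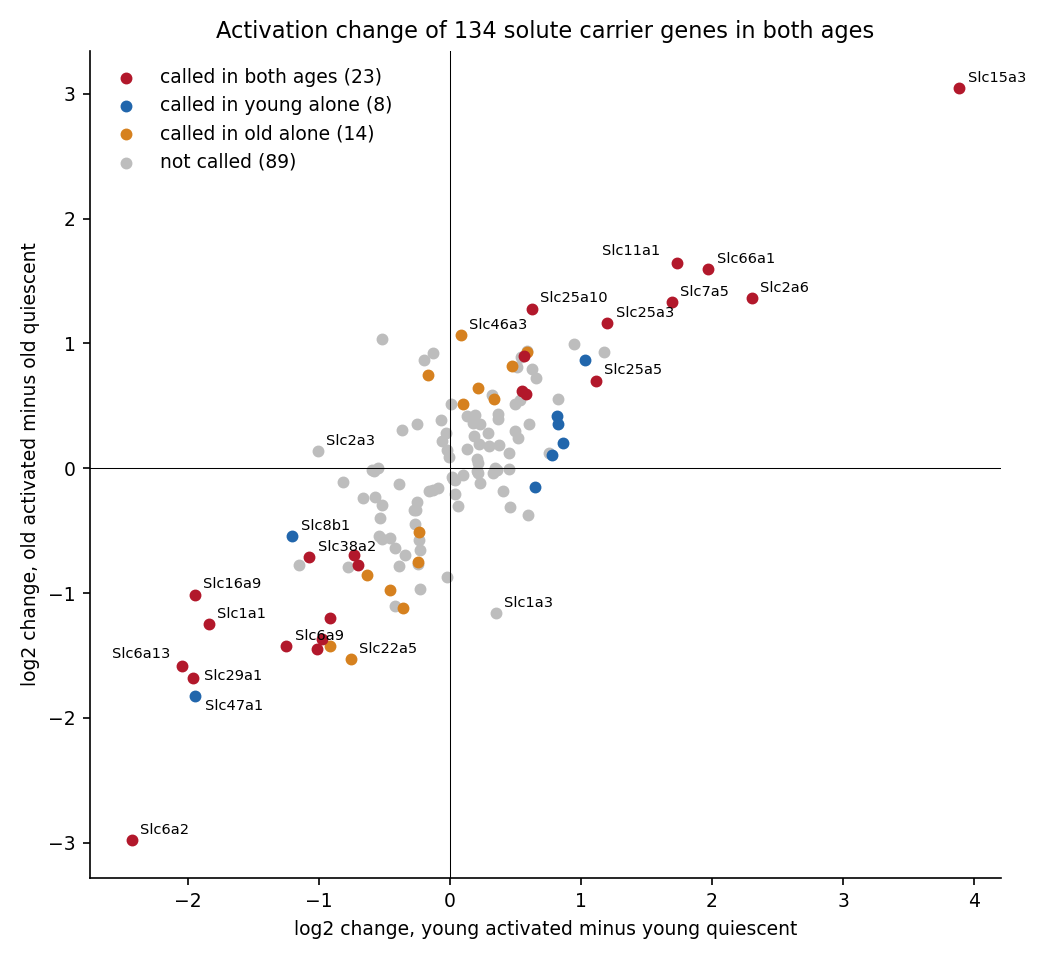
Each point is 1 of 134 solute carrier genes, placed by its log2 change between activated and quiescent arrays in young (x axis) and in old mice (y axis), with colour for the calls at an adjusted p under 0.05. The 23 genes called in both ages lie above 0 or below 0 on both axes, from Slc15a3 at 3.89 and 3.04 to Slc6a2 at -2.43 and -2.98.

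The first 4 risen genes sit at lysosomes or phagosomes, but they were picked for their rise, and no list of such carriers was tested. Slc15a3 carries histidine and small peptides out of lysosomes. Its log2 level was 8.48 to 9.79 (median 9.22) on young activated arrays, against 4.17 to 6.35 (median 5.30) on young quiescent arrays. On old activated arrays it was 8.61 to 10.49 (median 9.39), against 4.24 to 9.04 (median 6.999) on old quiescent arrays. The groups did not overlap in young mice, and in old mice old quiescent array 2, at 9.04, lay above the lowest activated array. The log2 change was 3.89 ± 0.60 (SE, n = 6 arrays per group, limma adjusted p = 2.06e-05, 14.8-fold) in young mice and 3.04 ± 0.60 (adjusted p = 0.000529, 8.25-fold) in old mice. The old quiescent arrays spread more widely than those of the other groups.

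Slc11a1 (NRAMP1) moves iron and manganese across the phagosome membrane and is known from macrophages. On young arrays its log2 level was 11.18 to 12.74 (median 11.66) in activated cells, against 9.69 to 10.38 (median 10.14) in quiescent cells. On old arrays it was 11.76 to 12.55 (median 12.21) in activated cells, against 9.78 to 11.72 (median 10.47) in quiescent cells. In neither age did the groups overlap, although the highest old quiescent array, number 2, came close to the lowest activated one. Slc11a1 rose by 1.73 ± 0.30 in young mice (limma adjusted p = 8.32e-05, 3.32-fold) and by 1.64 ± 0.30 in old mice (adjusted p = 0.000251, 3.12-fold). Its other well detected probe showed log2 changes of 2.58 in young and 3.42 in old mice, and its dimmest probe, detected on 6 arrays, 0.41 and 1.24.

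Slc66a1 exports cationic amino acids from lysosomes. Its levels on the log2 scale were 6.41 to 8.23 (median 7.30) on young activated arrays, against 5.18 to 5.49 (median 5.34) on young quiescent arrays. It was 6.73 to 7.96 (median 7.63) on old activated arrays, against 5.26 to 6.81 (median 5.74) on old quiescent arrays. The young groups stood apart, and the old groups overlapped by 1 array on each side. The log2 change was 1.97 ± 0.27 in young mice (limma adjusted p = 4.9e-06, 3.92-fold) and 1.60 ± 0.27 in old mice (adjusted p = 0.000119, 3.03-fold). Slc2a6, a glucose transporter family member that sits in lysosomal membranes, had log2 levels of 5.99 to 8.07 (median 7.30) on young activated arrays, against 4.38 to 5.89 (median 4.64) on young quiescent arrays. In old mice it was 6.83 to 8.15 (median 7.65) when activated, against 4.34 to 7.67 (median 6.25) when quiescent. It rose 4.94-fold in young mice (limma adjusted p = 0.000204) and 2.57-fold in old mice (adjusted p = 0.0206). The call in old mice was lost without old quiescent array 3, at an adjusted p of 0.0623, and under 2 other settings.

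Among old quiescent arrays, array 2, with the highest macrophage sum, was highest in Slc15a3, Slc11a1 and Slc2a6 and next to highest in Slc66a1, and the part of macrophage RNA in the rises of these 4 genes was not tested. With old quiescent array 2 and old activated array 4 left out together, a choice made after seeing the data, 19 solute carriers were higher and 17 lower in old mice. Of other lysosomal carriers, Slc17a5, which exports sialic acid and was picked here after its values were seen, rose by 0.74 ± 0.22 in old mice (limma adjusted p = 0.0118) and had a log2 change of -0.16 in young mice. Slc46a3, a lysosomal carrier, was near background, detected on 5 of 6 old activated and 1 of 6 old quiescent arrays. It rose by 1.07 ± 0.31 in old mice (limma adjusted p = 0.0113), and its log2 change in young mice was 0.08. Slc15a4, a lysosomal carrier of histidine and peptides, showed log2 changes of 0.53 in young (limma adjusted p = 0.0565) and 0.55 in old mice (adjusted p = 0.0556), and the lysosomal nucleoside carrier Slc29a3 showed 0.50 (adjusted p = 0.133) and 0.51 (adjusted p = 0.132). The vacuolar ATPase brings protons into lysosomes, and of 4 measured subunits of this pump 1 rose in young mice and 3 in old mice. Atp6v1b2 rose 2.34-fold in young (limma adjusted p = 0.00129) and 2.58-fold in old mice (adjusted p = 0.00068).

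**Figure D3:**
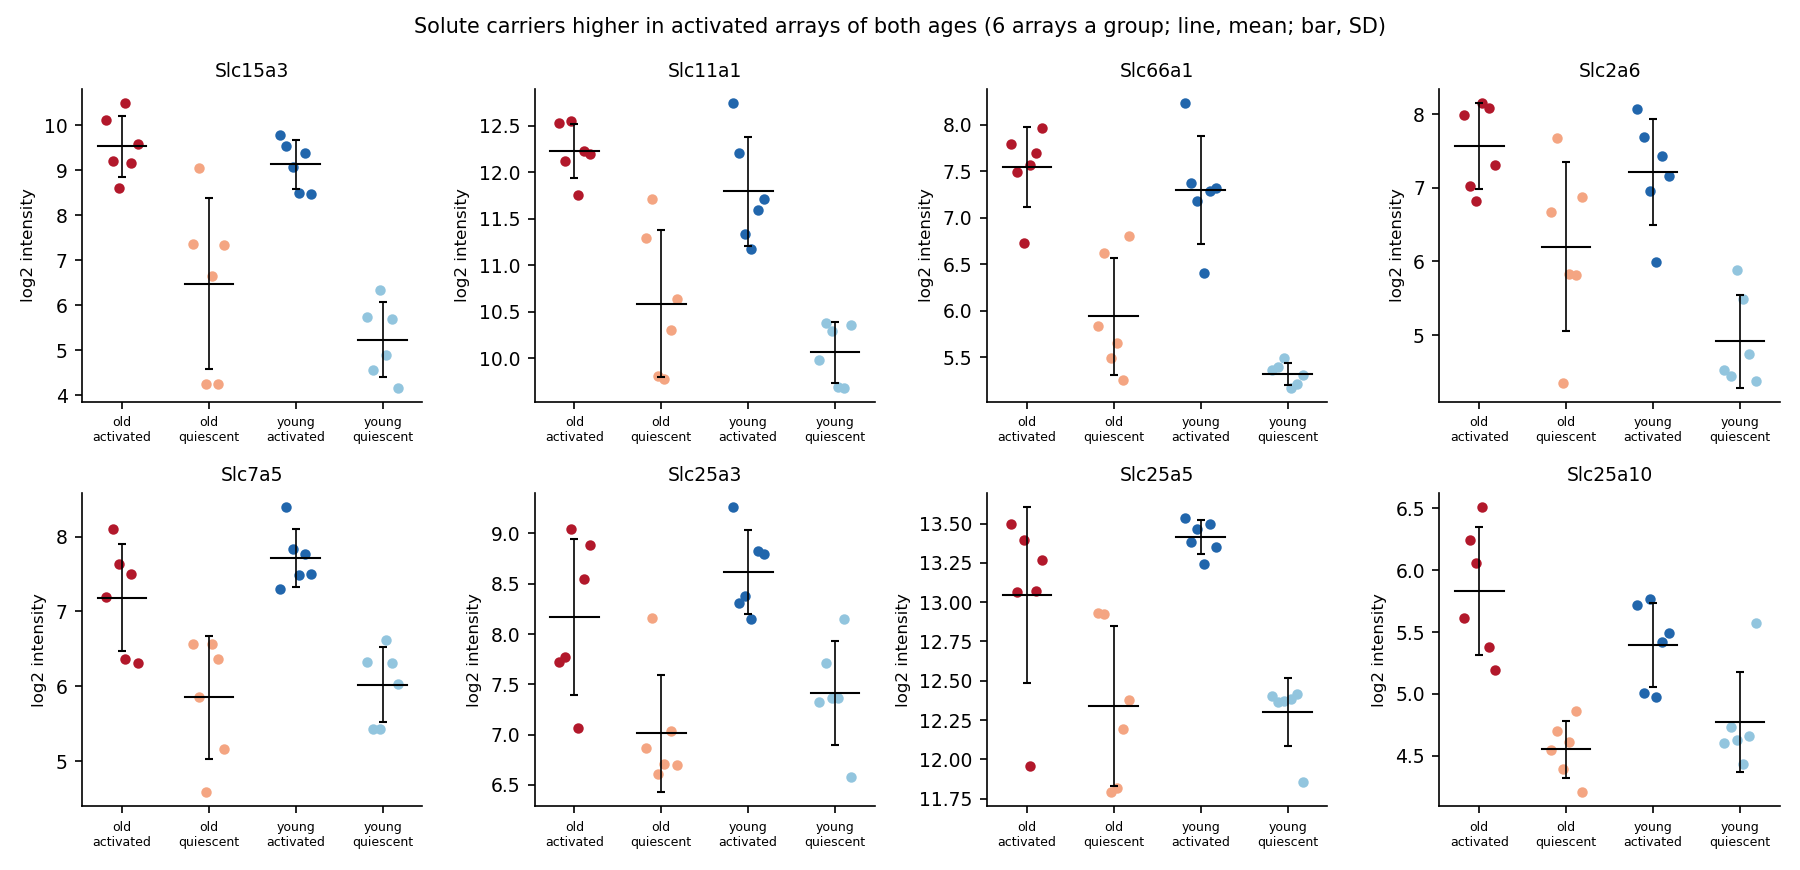
Log2 intensity of 8 solute carriers on each of 24 arrays, with 6 arrays per group, a line at the mean and a bar of 1 SD. The young activated arrays of Slc15a3, Slc11a1, Slc66a1, Slc2a6, Slc7a5 and Slc25a5 lie above all young quiescent arrays, and old quiescent arrays spread more widely than young ones in Slc15a3 and Slc2a6.

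Carriers of amino acids and neurotransmitters went both ways. Of 22 measured genes in this class, 2 were higher and 5 lower in young mice, and 4 were higher and 5 lower in old mice. The class had a median log2 change of 0.07 in young mice and of -0.01 in old mice, beside -0.01 and 0.00 over all features. Slc7a5 (LAT1), the main importer of leucine and other large neutral amino acids, rose. In log2 units its level was 7.29 to 8.39 (median 7.64) on young activated arrays, against 5.43 to 6.62 (median 6.17) on young quiescent arrays. Old activated arrays held 6.31 to 8.10 (median 7.35), against 4.59 to 6.57 (median 6.11) on old quiescent arrays. The young groups did not overlap, and 2 old activated arrays fell within the old quiescent range. The log2 rise of Slc7a5 was 1.69 ± 0.35 (limma adjusted p = 0.000521, 3.23-fold) in young and 1.33 ± 0.35 (adjusted p = 0.00556, 2.52-fold) in old mice.

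Its heavy chain Slc3a2, which takes Slc7a5 to the cell surface, was near background. The probe was detected on 2 of 6 old activated, 2 of 6 old quiescent, 3 of 6 young activated and 0 of 6 young quiescent arrays. Its log2 change was 0.34 in young (limma adjusted p = 0.289) and 0.00 in old mice (adjusted p = 0.999). Slc7a8 (LAT2), the related exchanger, was detected on 5 of 6 old activated, 4 of 6 young activated and 0 of 12 quiescent arrays. It passed the filter through activated arrays alone, so the filter itself favoured a rise. Slc7a8 was at least 1.17-fold higher in old (limma adjusted p = 0.00103) and at least 1.08-fold higher in young activated arrays (adjusted p = 0.025). The young call was lost without young activated array 1 or 2 or young quiescent array 6, at adjusted p-values of 0.0518 to 0.0738, and under 3 other settings. Slc1a4, a neutral amino acid exchanger, showed log2 changes of 0.18 in young mice and 0.26 in old mice, neither called. Slc6a6, the taurine carrier, and Slc7a4, both picked after their values were seen, rose in old mice by 0.82 ± 0.30 (limma adjusted p = 0.0454) and 0.64 ± 0.24 (adjusted p = 0.0474). Slc7a4 was undetected on all old quiescent arrays, which makes it at least 1.03-fold higher.

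Slc38a2 (SNAT2), a sodium-coupled importer of small neutral amino acids, went the other way from Slc7a5. The log2 level of its brightest probe was 9.90 to 10.62 (median 10.42) on young activated arrays, against 11.27 to 11.70 (median 11.37) on young quiescent arrays. On old activated arrays it was 10.06 to 11.08 (median 10.63), against 11.005 to 11.68 (median 11.33) on old quiescent arrays. It was detected everywhere and the young groups stood apart. The log2 change was -1.07 ± 0.19 in young (limma adjusted p = 8.84e-05) and -0.71 ± 0.19 in old mice (adjusted p = 0.00602). Its other probes were flatter, at -0.05 and -0.05 in young and -0.56 and -0.18 in old mice. Of 5 measured genes of amino acid sensing and stress, 2 rose and 2 fell in young mice, and 0 rose and 2 fell in old mice. The asparagine synthetase gene Asns rose 3.62-fold in young mice (limma adjusted p = 3.53e-05) and had a 1.64-fold change in old mice (adjusted p = 0.0793). Atf4, a regulator of amino acid genes, rose 1.95-fold in young mice (limma adjusted p = 0.0360) and had a 1.28-fold change in old mice (adjusted p = 0.488). Chac1 had log2 changes of -0.59 and -0.83 and was not called. The stress regulators Ddit3 and Nupr1 fell 2.20- and 4.86-fold in young and 2.35- and 4.29-fold in old mice, with limma adjusted p-values of at most 0.000321.

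Slc6a2, Slc6a13 and Slc6a9 of the Slc6 family and the glutamate importer Slc1a1 fell in both ages as well. Slc6a2, the noradrenaline transporter of sympathetic nerve endings, was detected on all 12 quiescent and on 5 of 12 activated arrays. The log2 level of Slc6a2 was 4.26 to 6.21 (median 5.01) on young activated arrays, against 7.02 to 7.83 (median 7.43) on young quiescent arrays. Old activated arrays held 4.34 to 5.69 (median 4.60), against 6.38 to 8.49 (median 7.97) on old quiescent arrays. All activated arrays lay below all quiescent arrays of the same age. Slc6a2 fell by 2.43 ± 0.34 in young (limma adjusted p = 5.78e-06, 5.38-fold lower) and fell by 2.98 ± 0.34 in old mice (adjusted p = 1.06e-06, 7.89-fold lower), the largest falls of any measured solute carrier in either age.

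Slc1a1, a glutamate and cysteine importer, was detected on 0 of 6 young activated arrays and 1 of 6 old activated arrays. The log2 level was 4.20 to 4.42 (median 4.26) on young activated arrays, against 5.52 to 6.92 (median 6.00) on young quiescent arrays, and on old activated arrays it was 4.17 to 4.94 (median 4.21), against 4.19 to 7.59 (median 5.65) on old quiescent arrays. Old quiescent arrays 3 and 5 were as low as the activated arrays. Slc1a1 was at least 2.42-fold lower in young activated arrays (limma adjusted p = 0.000615), and its log2 change in old mice was -1.25 ± 0.39 (adjusted p = 0.017, and 0.0823 in a fit of the old arrays alone). Slc6a13, a GABA transporter known from meningeal fibroblasts, had log2 levels of 4.16 to 5.83 (median 4.84) on young activated arrays, against 5.45 to 8.52 (median 7.10) on young quiescent arrays. It fell by 2.04 ± 0.57 in young (limma adjusted p = 0.00737) and by 1.58 ± 0.57 in old mice (adjusted p = 0.0408). The old call was lost without any 1 of old activated arrays 2, 4 and 6 or old quiescent arrays 1, 2, 3 and 6, at adjusted p-values of 0.0539 to 0.111, and under 7 other settings. Slc6a9, a glycine transporter, fell by 1.25 ± 0.37 in young (limma adjusted p = 0.0099) and 1.42 ± 0.37 in old mice (adjusted p = 0.00493), with 1 array or more of each activated group inside the quiescent range. Other measured glutamate carriers were not called. Slc1a2 (GLT-1), near background, showed log2 changes of 0.59 in young (limma adjusted p = 0.269) and 0.94 in old mice (adjusted p = 0.0764), and Slc1a3 (GLAST) 0.35 (adjusted p = 0.603) and -1.16 (adjusted p = 0.0601). For Slc1a6 the changes were 0.04 and -0.09, and for Slc1a7 they were -0.16 and -0.18.

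A nucleoside carrier and a monocarboxylate carrier fell in both ages. Slc29a1 (ENT1), which equilibrates adenosine and other nucleosides across the plasma membrane, was detected on all arrays. Levels of Slc29a1 on the log2 scale were 5.89 to 6.64 (median 6.34) on young activated arrays, against 7.79 to 8.74 (median 8.22) on young quiescent arrays. On old activated arrays it was 5.89 to 6.70 (median 6.41), against 7.31 to 8.88 (median 7.97) on old quiescent arrays. In both ages the groups stood apart, and old quiescent array 2 was the lowest of its group. The log2 change was -1.96 ± 0.23 in young (limma adjusted p = 3.89e-07, 3.89-fold lower) and -1.68 ± 0.23 in old mice (adjusted p = 7.46e-06, 3.21-fold lower). Slc16a9, of the monocarboxylate carrier family, had log2 levels of 5.20 to 6.34 (median 5.92) on young activated arrays, against 7.45 to 8.39 (median 7.75) on young quiescent arrays. Of the 3 measured genes of this family it was the one called in either age by its brightest probe. The brightest probe of Slc16a6 showed log2 changes of 0.95 and 1.00 and was not called. A dimmer Slc16a6 probe, detected on 9 arrays, rose by 0.56 in young and 1.35 in old mice. In a fit of all kept probes its limma adjusted p was 0.043 and 4.45e-05. In old mice Slc16a9 was 5.81 to 7.72 (median 6.58) when activated, against 7.12 to 8.02 (median 7.73) when quiescent. It fell by 1.95 ± 0.26 in young (limma adjusted p = 2.23e-06) and by 1.01 ± 0.26 in old mice (adjusted p = 0.00432). The difference between these changes was 0.93 (limma adjusted p = 0.432).

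The falls in Slc6a2, Slc29a1, Slc1a1 and Slc16a9 went with lower sums of FAP, endothelial and pericyte genes on activated arrays, and the part of these cell types in them was not tested. Of 3 measured organic anion carriers outside the Slc symbol rule, 2 fell in young mice and 1 in old mice. Slco2b1 fell 7.77-fold in young (limma adjusted p = 7.6e-10) and 4.13-fold in old mice (adjusted p = 6.41e-07). Slco3a1 fell 2.39-fold in young mice (limma adjusted p = 0.00215) and had a log2 change of -0.75 in old mice (adjusted p = 0.0663), and Slco2a1 had log2 changes of -0.17 and 0.37, neither called. Of 12 measured ABC transporters, which use ATP, 1 rose and 4 fell in young mice and 1 rose and 2 fell in old mice. Abca8a fell 8.48-fold in young and 5.17-fold in old mice, and Abca9 5.22- and 4.18-fold, with limma adjusted p-values of at most 2.09e-05.

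**Figure D4:**
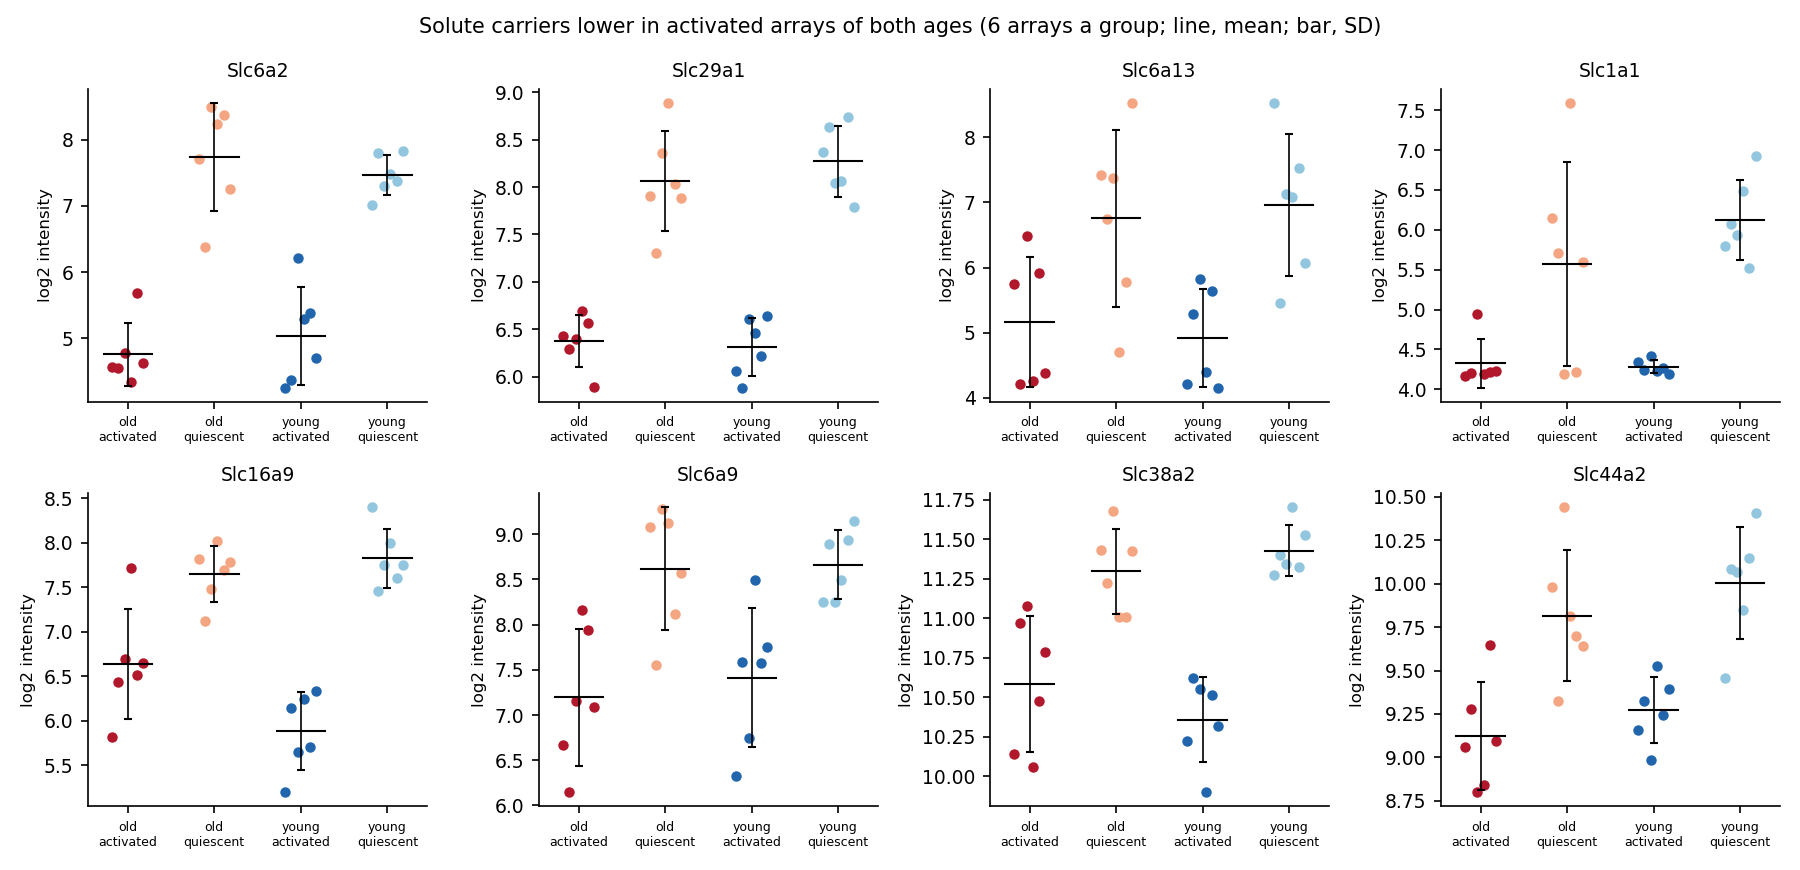
Log2 intensity of 8 solute carriers on each of 24 arrays, with 6 arrays per group, a line at the mean and a bar of 1 SD. Slc6a2 and Slc29a1 are lower on every activated array than on every quiescent array of the same age, whereas Slc6a13 and Slc6a9 overlap between the groups.

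Among mitochondrial carriers, Slc25a3, Slc25a5, Slc25a10 and Slc25a11 rose in activated cells of both ages. Of 22 measured mitochondrial carriers, 4 were higher and 2 lower in young mice, and 5 were higher and 2 lower in old mice. Of all features, 17.2% were higher and 16.6% lower in young mice, and 14.5% and 13.8% in old mice. The median log2 change over the class was 0.35 in young mice and 0.08 in old mice, beside -0.01 and 0.00 over all features. Slc25a5, the ADP/ATP exchanger of growing cells, had log2 levels of 13.24 to 13.54 (median 13.42) on young activated arrays, against 11.86 to 12.41 (median 12.38) on young quiescent arrays. Old activated arrays held 11.96 to 13.50 (median 13.17), against 11.79 to 12.93 (median 12.29) on old quiescent arrays. The young groups stood apart, while old activated array 4 lay low within the old quiescent range. The log2 change was 1.11 ± 0.23 in young (limma adjusted p = 0.000615, 2.16-fold) and 0.70 ± 0.23 in old mice (adjusted p = 0.0261, 1.63-fold). The old call was lost without any 1 of old activated arrays 1, 3 and 6 or old quiescent arrays 3 and 4, at adjusted p-values of 0.0510 to 0.0694, and in a fit of the old arrays alone.

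Slc25a3, which brings phosphate into the matrix for ATP synthesis, rose by 1.20 ± 0.33 in young (limma adjusted p = 0.0058) and by 1.16 ± 0.33 in old mice (adjusted p = 0.00923). Its log2 level was 8.15 to 9.26 on young activated arrays, against 6.58 to 8.15 on young quiescent arrays, and 7.06 to 9.04 on old activated arrays, against 6.61 to 8.15 on old quiescent arrays. Its other probe showed log2 changes of 0.55 and 0.81. Slc25a10, a dicarboxylate carrier, was detected on 6 of 6 old activated, 1 of 6 old quiescent, 5 of 6 young activated and 1 of 6 young quiescent arrays. It rose by 1.28 ± 0.23 in old mice (limma adjusted p = 0.000192), where the groups did not overlap, and by 0.63 ± 0.23 in young mice (adjusted p = 0.0371). Without any 1 of young activated arrays 1, 3, 5 and 6 or young quiescent arrays 1 to 5 the young call was lost, at adjusted p-values of 0.0588 to 0.0853, and it was lost under 5 other settings.

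Slc25a11, which exchanges oxoglutarate for malate, rose by 0.55 ± 0.19 in young (limma adjusted p = 0.0242) and 0.62 ± 0.19 in old mice (adjusted p = 0.0146). The young call was lost without young activated array 1 or 5 or young quiescent array 3, at adjusted p-values of 0.0516 to 0.0651, and with a trend and robust prior. With the mean of its probes neither call held (adjusted p = 0.184 and 0.192). The old call was also lost in a fit of the old arrays alone and without both arrays that stood apart. A probe of Slc25a11 detected on 24 arrays had log2 changes of 0.53 in young and 0.97 in old mice, and one detected on 7 arrays 0.14 and -0.36. The citrate carrier Slc25a1 showed log2 changes of 0.37 in young and 0.44 in old mice and was not called. Slc25a24, which exchanges ATP-Mg for phosphate, was not called either, at 0.45 in young (limma adjusted p = 0.0855) and -0.01 in old mice (adjusted p = 0.988). Slc25a39, a carrier of glutathione picked after its values were seen, rose by 0.51 ± 0.17 in old mice (limma adjusted p = 0.0243). The voltage-dependent channels of the outer membrane, through which such substrates pass, rose in both ages. Vdac1, Vdac2 and Vdac3 rose 2.02-, 1.99- and 2.02-fold in young and 2.32-, 1.83- and 2.32-fold in old mice, with limma adjusted p-values of at most 0.0155. Emb, a partner protein of monocarboxylate carriers, rose 4.45-fold in young (limma adjusted p = 7.48e-05) and 3.04-fold in old mice (adjusted p = 0.00216).

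Slc25a38, the glycine carrier needed for haem synthesis, fell, unlike the carriers above. It had log2 levels of 9.04 to 10.31 (median 9.45) on young activated arrays, against 9.77 to 11.09 (median 10.61) on young quiescent arrays. On old activated arrays it was 8.52 to 10.09 (median 9.09), against 9.90 to 11.01 (median 10.36) on old quiescent arrays. The log2 change was -0.92 ± 0.28 in young (limma adjusted p = 0.0123) and -1.20 ± 0.28 in old mice (adjusted p = 0.00209). Dimmer probes of Slc25a38, detected on 20 and 8 arrays, had log2 changes of -0.54 and -0.52 in young mice, neither called. In old mice they were at -1.06 (limma adjusted p = 0.00145 in a fit of all kept probes) and -0.10 (adjusted p = 0.771). Both measured red blood cell genes also fell in both ages, with sums of 1540 to 4168 on old activated, 8188 to 19285 on old quiescent, 332 to 819 on young activated and 9519 to 16592 on young quiescent arrays, and their part in the fall of Slc25a38 was not tested. Slc25a47, known from liver mitochondria, fell by 0.97 ± 0.36 in young (limma adjusted p = 0.037) and 1.37 ± 0.36 in old mice (adjusted p = 0.00546). Leaving out any 1 of young activated arrays 1, 4, 5 and 6 or young quiescent arrays 3 to 6 ended the young call, at adjusted p-values of 0.0545 to 0.0859, as did dropping the detection filter. Slc8b1, the sodium/calcium exchanger of mitochondria, fell by 1.20 ± 0.33 in young mice (limma adjusted p = 0.00682), with log2 levels of 5.80 to 8.59 on activated arrays, against 8.16 to 8.71 on quiescent arrays. In old mice its log2 change was -0.54 (adjusted p = 0.239).

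**Figure D5:**
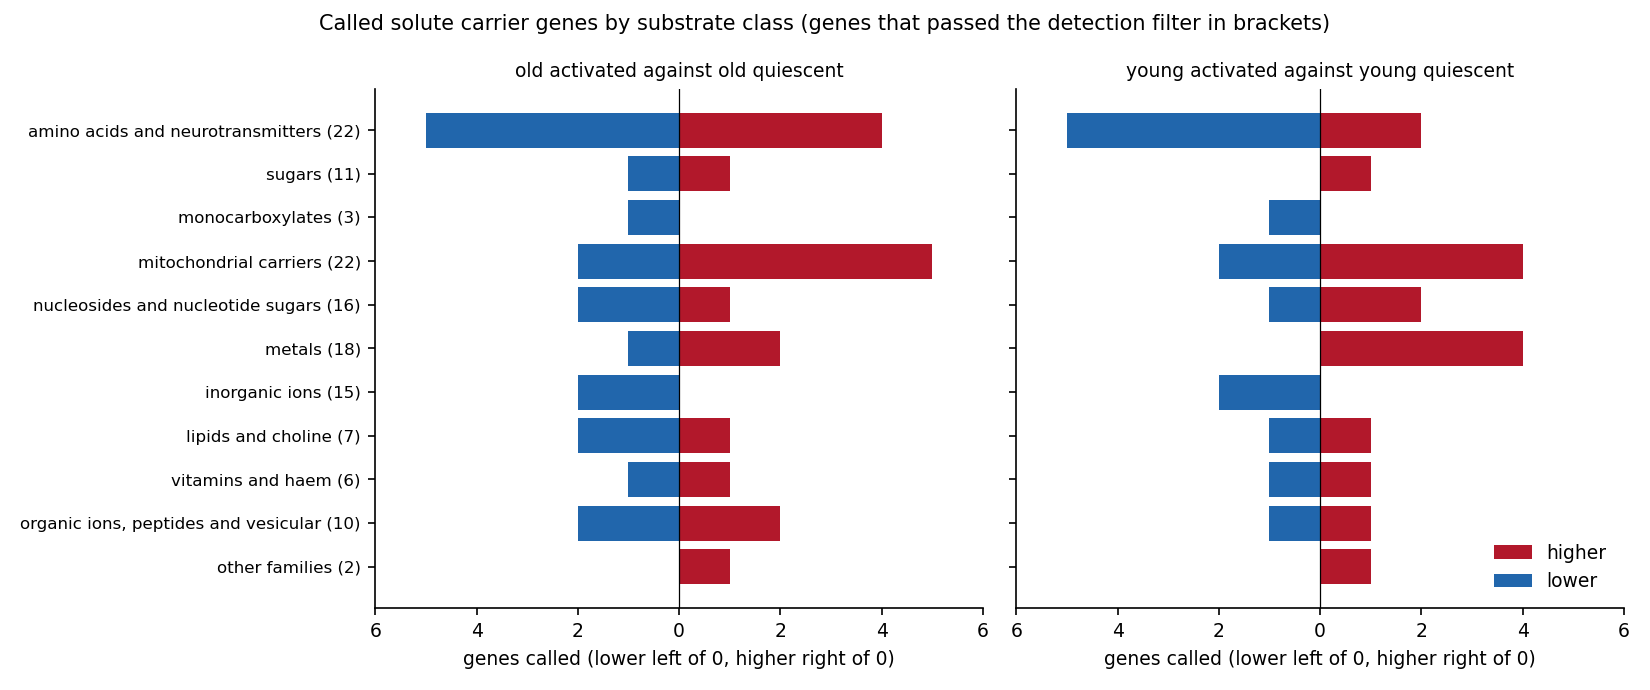
Number of solute carrier genes called lower (bars to the left of 0) and higher (bars to the right) in activated arrays, by substrate class, in old mice (left) and young mice (right), with the number of measured genes in brackets. Amino acid carriers hold the most genes called lower, 5 in each age, and mitochondrial carriers the most called higher among classes in old mice, 5 of 22. Of all features, 14.5% were called higher and 13.8% lower in old mice, and 17.2% and 16.6% in young mice.

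Metal carriers had 18 measured genes, of which 4 rose and 0 fell in young mice and 2 rose and 1 fell in old mice. Of all features, 17.2% rose and 16.6% fell in young mice, and 14.5% rose and 13.8% fell in old mice. Besides Slc11a1, the risen genes in young mice were zinc carriers. Slc30a7, which loads zinc into the Golgi, rose by 1.03 ± 0.34 (limma adjusted p = 0.0199) and had a log2 change of 0.87 in old mice (adjusted p = 0.0548). Its young call was lost without young activated array 6 or young quiescent array 6, at adjusted p-values of 0.0514 and 0.0573, and with the mean of its probes. Slc39a1, an importer at the cell surface, and Slc39a7, which releases zinc from the endoplasmic reticulum, were picked after their values were seen. They rose by 0.65 ± 0.22 (limma adjusted p = 0.0236) and 0.78 ± 0.28 (adjusted p = 0.0311) in young mice, and their log2 changes in old mice were -0.15 and 0.11. Dimmer probes of Slc39a7, detected on 24 and 7 arrays, had log2 changes of 0.19 and 0.58 in young mice, neither called.

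Slc39a13 (ZIP13), a zinc carrier required for connective tissue development, fell by 0.98 ± 0.28 in old mice (limma adjusted p = 0.0117, and 0.0676 in a fit of the old arrays alone). Its log2 level was 7.71 to 9.16 (median 8.11) on old activated arrays, against 8.06 to 9.79 (median 9.64) on old quiescent arrays. Its log2 change in young mice was -0.46 (adjusted p = 0.228). The other Slc39a13 probe, detected on 24 arrays, had log2 changes of 0.03 in young and -0.80 in old mice. Neither was called in a fit of all kept probes (limma adjusted p = 0.948 and 0.0521). The copper importer Slc31a1 rose by 0.93 ± 0.27 in old mice (limma adjusted p = 0.0103, and 0.0590 in a fit of the old arrays alone), with a log2 change of 0.59 in young mice (adjusted p = 0.0917). Iron carriers other than Slc11a1 were not called: the importer Slc11a2 showed log2 changes of 0.46 in young and -0.31 in old mice, and the exporter Slc40a1 (ferroportin) -0.57 and -0.23. The transferrin receptor gene Tfrc rose 3.78-fold in young (limma adjusted p = 0.000294) and 2.61-fold in old mice (adjusted p = 0.00709). Hmox1, which breaks down haem, was undetected on all young quiescent arrays and at least 1.38-fold higher in young activated arrays (limma adjusted p = 0.0111), and it rose 2.33-fold in old mice (adjusted p = 0.00199).

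Among carriers of nucleotide sugars, Slc35b4, which takes UDP-xylose and UDP-N-acetylglucosamine into the Golgi, rose by 0.82 ± 0.23 in young mice (limma adjusted p = 0.00716) and showed a log2 change of 0.42 in old mice (adjusted p = 0.182). Slc35a2, which takes UDP-galactose, rose by 0.86 ± 0.29 in young mice (limma adjusted p = 0.0221), with a log2 change of 0.20 in old mice. This call was lost without young activated array 4 or young quiescent array 3 or 4, at adjusted p-values of 0.0508 to 0.0555. In old mice Slc35e2, with no known substrate, fell by 1.12 ± 0.36 (limma adjusted p = 0.0211), a call lost without old activated array 2 or 4 or old quiescent array 5 (adjusted p = 0.0578 to 0.0646) and under 4 other settings. Slc35c2, picked after its values were seen, rose by 0.56 ± 0.20 in old mice (limma adjusted p = 0.043). Its dimmer probes, detected on 24 and 21 arrays, had log2 changes of 0.27 and 0.22 in old mice, neither called. Over the 16 measured genes of nucleosides and nucleotide sugars, 2 rose and 1 fell in young mice and 1 rose and 2 fell in old mice.

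Of 11 measured genes in families classed as sugar carriers, Slc2a6 was the gene called in young mice, and Slc2a6 and Slc50a1 were those called in old mice. Slc50a1, a sugar exporter, fell by 0.75 ± 0.20 in old mice (limma adjusted p = 0.00626), with log2 levels of 8.15 to 9.32 on activated arrays, against 9.40 to 9.80 on quiescent arrays and no overlap. In young mice its log2 change was -0.24. The glucose importer Slc2a1 showed log2 changes of 0.52 in young (limma adjusted p = 0.119) and 0.25 in old mice (adjusted p = 0.513). Of 15 measured carriers of inorganic ions, 0 rose and 2 fell in each age by their brightest probes, Slc12a2 and Slc8b1 in young and Slc12a2 and Slc4a3 in old mice. The brightest probe of Slc9a8 had a log2 change of -0.46 in young mice and was not called. A dimmer Slc9a8 probe, detected on 9 arrays, rose by 0.93 in young mice (limma adjusted p = 0.00531 in a fit of all kept probes) and had a change of 0.02 in old mice. Slc12a2 (NKCC1), which loads chloride with sodium and potassium, fell by 0.70 ± 0.20 in young (limma adjusted p = 0.00861) and 0.77 ± 0.20 in old mice (adjusted p = 0.00535). A dimmer probe of Slc12a2 had log2 changes of 0.13 and -0.23, and the mean of both probes was not called in young (adjusted p = 0.385) or old mice (adjusted p = 0.121). Slc4a3, an anion exchanger, fell by 0.86 ± 0.32 in old mice (limma adjusted p = 0.0443). That call was lost in 11 of the fits without 1 array: old activated arrays 1, 2, 3, 4 and 6, old quiescent arrays 1, 4, 5 and 6, young activated array 3 and young quiescent array 2, with adjusted p-values of 0.0501 to 0.111, and under 4 other settings.

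Of 7 measured carriers of lipids and choline, 1 rose and 1 fell in young mice, and 1 rose and 2 fell in old mice. Slc44a2, a choline carrier, fell by 0.73 ± 0.19 in young (limma adjusted p = 0.00455) and 0.69 ± 0.19 in old mice (adjusted p = 0.00827). Slc44a1, the related choline carrier, fell by 1.42 ± 0.39 in old mice (limma adjusted p = 0.00726), and its log2 change in young mice was -0.91 (adjusted p = 0.0724). Slc22a5 (OCTN2), which imports carnitine for fatty acid oxidation, was not counted in this class but with the organic ion carriers below. It had log2 levels of 4.70 to 7.30 (median 6.61) on old activated arrays, against 7.14 to 8.30 (median 7.80) on old quiescent arrays. It fell by 1.53 ± 0.35 in old mice (limma adjusted p = 0.00173), and its log2 change in young mice was -0.75 (adjusted p = 0.0961). Its other probe was flatter, at -0.26 in young and -0.31 in old mice. Slc27a1 (FATP1), a fatty acid carrier, was near background, detected on 3 of 6 old activated, 3 of 6 young activated and 0 of 12 quiescent arrays. It passed the filter through activated arrays alone, so the filter itself favoured a rise. It was called in young (limma adjusted p = 0.0279, at least 1.02-fold higher) and in old mice (adjusted p = 0.0297, with no bound above 1). These calls were lost without young activated array 1 or 4 or young quiescent array 6 and without old activated array 1, 3 or 5 or old quiescent array 4 or 5, at adjusted p-values of 0.0540 to 0.0848, and under 1 other setting in young and 6 in old mice.

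Of 6 measured vitamin and haem carriers, 1 rose and 1 fell in each age. Slc52a3, a riboflavin importer, fell by 1.45 ± 0.36 in old mice (limma adjusted p = 0.00376), with log2 levels of 4.44 to 5.47 on activated arrays, against 5.80 to 8.08 on quiescent arrays and no overlap. In young mice it fell by 1.01 ± 0.36 (adjusted p = 0.0318), a call lost without any 1 of young activated arrays 1, 5 and 6 or young quiescent arrays 1, 3 and 6 (adjusted p = 0.0530 to 0.0821) and under 4 other settings. Slc19a1, the reduced folate carrier, was detected on 6 of 6 young activated and 1 of 6 young quiescent arrays and rose by 0.83 ± 0.19 in young mice (limma adjusted p = 0.00129), with no overlap. In old mice its log2 change was 0.36 (adjusted p = 0.162). Of 10 measured carriers of organic ions and peptides and of vesicular carriers, 1 rose and 1 fell in young mice, and 2 rose and 2 fell in old mice. Slc47a1 (MATE1), an exporter of organic cations, was called lower in young mice, at -1.95 ± 0.75 on the log2 scale (limma adjusted p = 0.0489), and its change in old mice was -1.82 (adjusted p = 0.073). Its log2 level ranged from 4.30 to 7.01 on young activated arrays, against 6.10 to 9.08 on young quiescent arrays. The young call was lost without any 1 of old activated arrays 1, 2, 4, 5 and 6, old quiescent arrays 3 and 5, young activated arrays 1, 3, 5 and 6 or young quiescent arrays 1, 2, 3, 4 and 6, at adjusted p-values of 0.0505 to 0.130, and under 5 other settings. Slc22a17, the lipocalin 2 receptor, was detected on 6 arrays in all and was called lower in old mice by 0.51 ± 0.19 (limma adjusted p = 0.0426). Its call was lost without any 1 of old activated arrays 1, 2, 4, 5 and 6 or old quiescent arrays 2 to 5, at adjusted p-values of 0.0538 to 0.122, and under 9 other settings.

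Age alone moved no solute carrier past the threshold. Between old and young quiescent cells 0 of 134 genes were called with limma, beside 0.577% of all features, and 9 genes (6.72%) had an unadjusted p under 0.05, beside 12.6% of all features. Between old and young activated cells 0 genes were called, beside 0.27% of all features, and 20 genes (14.9%) had an unadjusted p under 0.05, beside 11.5%. The median 95% interval of an age difference, without adjustment for the number of features, reached 0.62 log2 units to either side. Differences of that size or less could not be told from none in most genes, and larger ones could also go uncalled. In simulated data the procedure called 40.3% of 2-fold age differences in quiescent and 44.5% in activated cells. For 4-fold differences it called 90.7% and 92.3%. The simulation used normal noise with 1 SD per gene shared by all groups, and changed 200 of 8148 features per run. It set no floor for dim probes. In the data the old groups spread more (median SD 0.57 and 0.54, against 0.41 in both young groups) and dim probes are held near a floor. The shares for the genes here can therefore differ.

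Slc2a3 (GLUT3), a glucose importer with high affinity, had the lowest adjusted p between old and young activated cells. Its log2 level was 6.05 to 6.79 (median 6.15) on old activated arrays, against 4.22 to 5.87 (median 4.49) on young activated arrays. All old activated arrays lay above all young ones, with a difference of 1.55 ± 0.40 (limma adjusted p = 0.0891). On quiescent arrays it was 4.43 to 7.26 (median 6.48) in old mice, against 4.58 to 6.52 (median 5.87) in young mice, a difference of 0.40. Its activation change was -1.01 in young (limma adjusted p = 0.0549) and 0.14 in old mice (adjusted p = 0.84), and the difference between these changes, 1.15, had an adjusted p of 0.597. In a fit of the activated arrays alone Slc2a3 was called (adjusted p = 0.0374). Marker sums differed between the same groups. The sum of 4 neutrophil genes was 1467 to 3059 on old activated arrays, against 356 to 1574 on young activated arrays, and 0 of the 4 genes were called between them. Endothelial and red blood cell sums, given above, did not overlap between old and young activated arrays and were higher in old, with 2 of 10 and 1 of 2 genes called. The part of these cell types in the difference in Slc2a3 was not tested.

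Next in order between old and young activated cells were Slc17a5, 0.76 higher in old on the log2 scale (limma adjusted p = 0.117), and Slc8b1, 1.14 higher (adjusted p = 0.129). Without young activated array 1 both were called, at adjusted p-values of 0.032 and 0.025. Between old and young quiescent cells Slc2a6 had the lowest adjusted p, 0.169 with limma, and a difference of 1.29 ± 0.43. Its log2 level was 4.34 to 7.67 (median 6.25) on old quiescent arrays, against 4.38 to 5.89 (median 4.64) on young quiescent arrays. Without old quiescent array 3, the lowest of its group, Slc2a6 was called, at a difference of 1.66 and an adjusted p of 0.044. On 3 of 6 old quiescent arrays the macrophage sum was above every young quiescent array, and Slc2a6 was highest on those 3 arrays. Of 6 measured T, B and NK cell genes, 3 were called higher on old quiescent arrays. The part of macrophage and lymphocyte RNA in this difference was not tested.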

How the data were processed

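For 24 arrays the authors deposited, per the file headers, intensities of 25697 probes without normalization and a detection p-value for each. The authors also deposited log2 values, used as an alternative: all columns have a median of 6.71, and log2 values of quantile-normalized intensities lie within 0.118 of them. The submitters' processing notes name Partek. Symbols came from GEO's platform annotation, which gave 1 symbol to 23978 probes and none to 1719. Background was removed with nec of limma (R 4.3.3, limma 3.58.1), which takes the negative controls from the detection p-values, with an offset of 16, followed by quantile normalization and log2. A probe needed a detection p under 0.01 on 6 or more arrays. The brightest such probe was used for each gene, and 8148 features remained.

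A limma model (lmFit, eBayes) with 4 group means was fitted to all 24 arrays. Its 5 contrasts were activated minus quiescent in each age, old minus young in each state, and the activation change in old minus that in young. Benjamini-Hochberg adjustment ran across the 8148 features, with calls at an adjusted p under 0.05. Errors are moderated SEs. A gene undetected on every array of a group has only a lower bound of its fold, set by the lowest detected signals. The procedure was tested on simulated data. No batch is named in the labels. Raw intensities of different arrays correlated at 0.992 or less. The number of arrays limits the precision.

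The genes, substrate classes, marker and partner lists and alternatives were chosen with earlier results of these data known. Substrate classes follow the family number of the symbol, so a class can hold genes that carry other substrates. Named genes are up to 12 genes called each way in both ages with the largest mean change, up to 4 called genes per class, called genes of the age contrasts and the interaction (there were 0) and 24 genes of general interest, of which 15 passed the filter; Slc25a4 was not named on the array. Alternatives varied the background correction, offset, normalization, filter, probe choice, weights, prior, arrays in the fit and the replicate block.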

Additional observations from a re-analysis of the deposited data

Results flagged for a closer look

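Among 180 sets of 6 arrays (45 named genes in 4 groups), 13 held an array whose gap to its nearest neighbour took more than 0.625 of the range of its group, beside the 1 in 20 groups that chance flags. Old activated array 3 was highest in Slc1a1 at a log2 level of 4.94, in Slc22a17 at 4.62 and in Slc47a1 at 5.91. Old activated array 4 was lowest in Slc25a5 at 11.96, against 13.07 to 13.50 on the other 5 arrays, and in Slc8b1 at 7.45, against 8.51 to 8.75. Old activated array 5 was highest in Slc6a2 at 5.69, still below every old quiescent array, and old activated array 2 was lowest in Slc7a8 at 4.56. Old quiescent array 2 was highest in Slc25a3 at 8.15, against 6.61 to 7.04 on the other arrays, and in Slc46a3 at 5.35. Old quiescent array 5 was highest in Slc35e2 at 8.01, against 6.21 to 6.62, and in Slc52a3 at 8.08, against 5.80 to 6.50. Young quiescent array 6 was lowest in Slc25a5 at 11.86, against 12.37 to 12.41, and highest in Slc25a10 at 5.57, against 4.43 to 4.73.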

How the results depend on the processing

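Of 61 calls of named genes, 39 held under every alternative, 22 were lost under at least 1 and 0 called values changed sign. Without 1 array, 16 of them were lost, as given beside each gene. In young mice the 17 genes called higher became 9 with probes detected on all 24 arrays (50 solute carriers tested) and 28 with array weights. The 14 called lower became 8, 24 and, in a fit of the young arrays alone, 22. In old mice the 18 called higher became 8 with detection on all 24 arrays and 9 in a fit of the old arrays alone, and the 19 called lower became 12 with detection on all 24 arrays. Between old and young activated cells the 0 genes called higher became 3 with array weights (Slc8b1, Slc17a5 and Slc46a3) and 1 (Slc2a3) in a fit of the activated arrays alone. The cause was not tested, other than that fewer genes are tested under the filter on all arrays.

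Without 1 array, the calls in young mice ranged from 13 to 20 higher and 11 to 16 lower, those in old mice from 15 to 21 higher and 16 to 22 lower, and those for old above young from 0 to 2 in activated and 0 to 1 in quiescent cells. The remaining counts stayed at 0. The replicate numbers did not clearly pair the samples: 6 of 24 pairs of same-numbered arrays correlated above 0.1. The highest value, 0.36, was that of old and young activated array 1. In 8 pairs the same-numbered array was the best match for the array of the first group, and the other direction was not looked at. With the replicate block 18 and 15 genes were called in young mice, 20 and 18 in old mice and 0 for age and the interaction.

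Some uncalled values changed sign. Slc2a3 in old mice had a log2 change of -0.011 without background correction and -0.0082 with the authors' log2 values. Slc40a1 in old mice was 0.32 without both arrays that stood apart, and Slc46a3 in young mice -0.031 with array weights. Without 1 array, the changes in old mice ranged from -0.51 to 0.0043 for Slc11a2, -0.033 to 0.57 for Slc1a4, -0.20 to 0.37 for Slc2a3, -0.030 to 0.37 for Slc35a2, -0.20 to 0.15 for Slc3a2 and -0.50 to 0.14 for Slc40a1, and in young mice from -0.038 to 0.32 for Slc1a4 and -0.064 to 0.19 for Slc46a3. Dim probes limit the fold changes of genes near background, such as Slc1a1, Slc7a8 and Slc27a1.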
